A study of Mus musculus with 136 samples.

Results

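The 31 genes described here belong to the unfolded protein response and the integrated stress response. They were taken by their symbols from a table of 47643 genes, and all 31 were found in it. By role, 15 encode chaperones and folding enzymes of the endoplasmic reticulum (ER), 5 belong to ER-associated degradation, 4 are the sensors of the response and the transcription factor gene Xbp1, and 7 belong to the integrated stress response. At E8.5, RNA of the NOD mouse strain had been sequenced from 66 concepti, with an embryo and a visceral yolk sac library under each conceptus name. In this strain diabetes arises spontaneously, from an autoimmune loss of beta cells. Normal dams gave 33 of the concepti in 10 litters, diabetic dams the other 33 in 12 litters, and all sires were normoglycemic NOD males. No drug, transgene or diet was part of the design.

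The 8 groups of libraries were formed by tissue, maternal condition and somite stage. At the stage of 5 or 6 somite pairs, 17 concepti came from normal and 17 from diabetic pregnancies, and at the 7–9 somite stages 16 came from each. Blood glucose of the dams was between 105 and 164 mg/dl in normal and between 423 and 595 mg/dl in diabetic pregnancies, and 1 diabetic litter had a reading given only as a lower bound. A spontaneously diabetic dam differs from a normal dam of this strain in more than glucose, so that the effect of glucose itself cannot be told apart from that of the autoimmune disease. Littermates shared a dam.

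Proteins that are secreted or inserted into membranes are folded in the ER. When unfolded proteins accumulate there, the sensors Ire1 (encoded by Ern1), Perk (encoded by Eif2ak3) and Atf6 are activated, and the factors Xbp1, Atf4 and cleaved Atf6 then raise the transcription of chaperones, folding enzymes and the machinery that returns misfolded proteins to the cytosol for degradation. Perk is at the same time a kinase of the translation factor eIF2, and phosphorylated eIF2 lowers protein synthesis while it favors translation of Atf4, whose targets make up the integrated stress response to ER stress, amino acid shortage and other insults. The visceral endoderm of the yolk sac is a secretory and absorptive epithelium that makes apolipoproteins, transthyretin and alpha-fetoprotein before the liver exists. Much of the pathway is regulated by splicing of Xbp1, cleavage of Atf6 and phosphorylation of Perk and eIF2, and none of these was measured by the 3′ end sequencing used here.

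Promoters of several of the genes carry the sequence through which Atf6 and Xbp1 are known to act. Promoter sequence from RefSeq (GRCm38.p6, from 250 bases before to 50 bases after the start) was at hand for 27 of the 31 genes. Both strands were searched for the ER stress response element ERSE, CCAAT and CCACG with 9 bases of any kind between them, for the related ERSE-II, ATTGG and CCACG with 1 base between them, for the UPRE core, TGACGTGG, and for the CARE sequence bound by Atf4 and its partners, TGATGNAAN. An ERSE lay in 8 of the 27 promoters, against 0.119% of all 32851 promoters of the same length. An ERSE-II lay in 2 of them, against 0.0365% of all. A CARE match was found in 4 of the 27, against 3.95% of all, and the UPRE core in 0 of the 27, against 0.676% of all. No match to the ERSE overlapped one to the ERSE-II in these promoters. The letters are a description of these windows and were not tested for binding.

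The 8 genes with an ERSE are shown because the chaperone group of this response is defined by it in textbooks, and because their levels in the embryo and the yolk sac are followed below. Each line gives the gene's own strand from 5′ to 3′, with the fixed letters of the motif in capitals. CCAAT and CCACG mark a forward match, and CGTGG and ATTGG the reverse. The stretches begin between 217 and 49 bases before the RefSeq start. The Hspa5 stretch lies inside the first exon of a longer GENCODE transcript, in its 5′ UTR.
Hspa5, chr2:34772020-34772048, plus strand: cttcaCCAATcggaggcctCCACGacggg
Hsp90b1, chr10:86705633-86705661, minus strand: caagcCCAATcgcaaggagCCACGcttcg
Hsp90b1, chr10:86705528-86705556, minus strand: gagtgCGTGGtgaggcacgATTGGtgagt
Calr, chr8:84847070-84847098, minus strand: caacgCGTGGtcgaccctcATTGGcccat
Canx, chr11:50325795-50325823, minus strand: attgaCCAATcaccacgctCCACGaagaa
Pdia6, chr12:17266486-17266514, plus strand: agagaCCAATgaaaggcggCCACGgcgtg
Dnajc3, chr14:118937822-118937850, plus strand: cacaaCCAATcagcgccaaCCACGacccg
Creld2, chr15:88819515-88819543, plus strand: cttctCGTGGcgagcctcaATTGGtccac
Syvn1, chr19:6046527-6046555, plus strand: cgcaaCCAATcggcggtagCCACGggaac

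A second set shows genes of the degradation and integrated stress response groups. Herpud1 carries an ERSE-II and a CARE match in the same promoter, while Chac1 and Asns carry a CARE match. In Herpud1 and Chac1 the CARE lies in the reverse orientation and ends in CATCA. The Asns stretch begins 28 bases before the RefSeq start and lies in the first exon of a longer GENCODE transcript. The remaining 2 matches, an ERSE-II of Dnajb11 and a CARE of Trib3, lie after the start and are not printed.
Herpud1 ERSE-II, chr8:94386372-94386392, plus strand: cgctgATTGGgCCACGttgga
Herpud1 CARE, chr8:94386311-94386329, plus strand: ggcgggTTgCATCAgcccg
Chac1, chr2:119351043-119351061, plus strand: ctgccgTTgCATCActcct
Asns, chr6:7693219-7693237, minus strand: ccacaTGATGaAActtccc

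The libraries held between 1017901 and 5658850 counts, with a median of 2302819. Levels are normalised read counts, that is, counts divided by DESeq2 size factors over the 132 libraries, so that tissues and stages share a scale. The method counts 1 tag for the 3′ end of each transcript, and levels were therefore not divided by gene length. Markers of the visceral endoderm checked the tissue labels. The summed level of the 10 markers lay between 10372 and 53508 in yolk sacs and between 96.3 and 3362 in embryos, with all 10 markers detected in both, and 10 of 10 yolk sac markers but 8 or 9 of 10 embryo markers had a mean of at least 10. Conceptus D28M36C of a diabetic pregnancy at the later stage stood apart from its group in both tissues. Its yolk sac had the fewest counts, 1017901, and differed by more than 1 on the log2 scale from the group median in 3610 of 10330 genes, against 665 in the next library. For 2 concepti the sex given for the embryo differed from that given for the yolk sac, and 0 libraries had counts of sex-linked genes that went against their own label. For these 2 pairs the counts thus go against an origin in the same conceptus. Results were also computed without these concepti.

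Hspa5 (chr2:34771970-34777547), which encodes the ER Hsp70 chaperone BiP, had the highest level of the 31 genes in both tissues. It accounted for a median of 27.8% of the tags of all 31 genes in embryos and 24.4% in yolk sacs. In embryos, 6 of the 31 genes had a mean of at least 1000 normalised read counts, 11 lay between 100 and 1000, 12 between 10 and 100, and 2 were under 10. In yolk sacs the corresponding numbers were 7, 11, 12 and 1. The high group held chaperones and folding enzymes and, as the only regulator, Atf4.

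**Figure D1:**
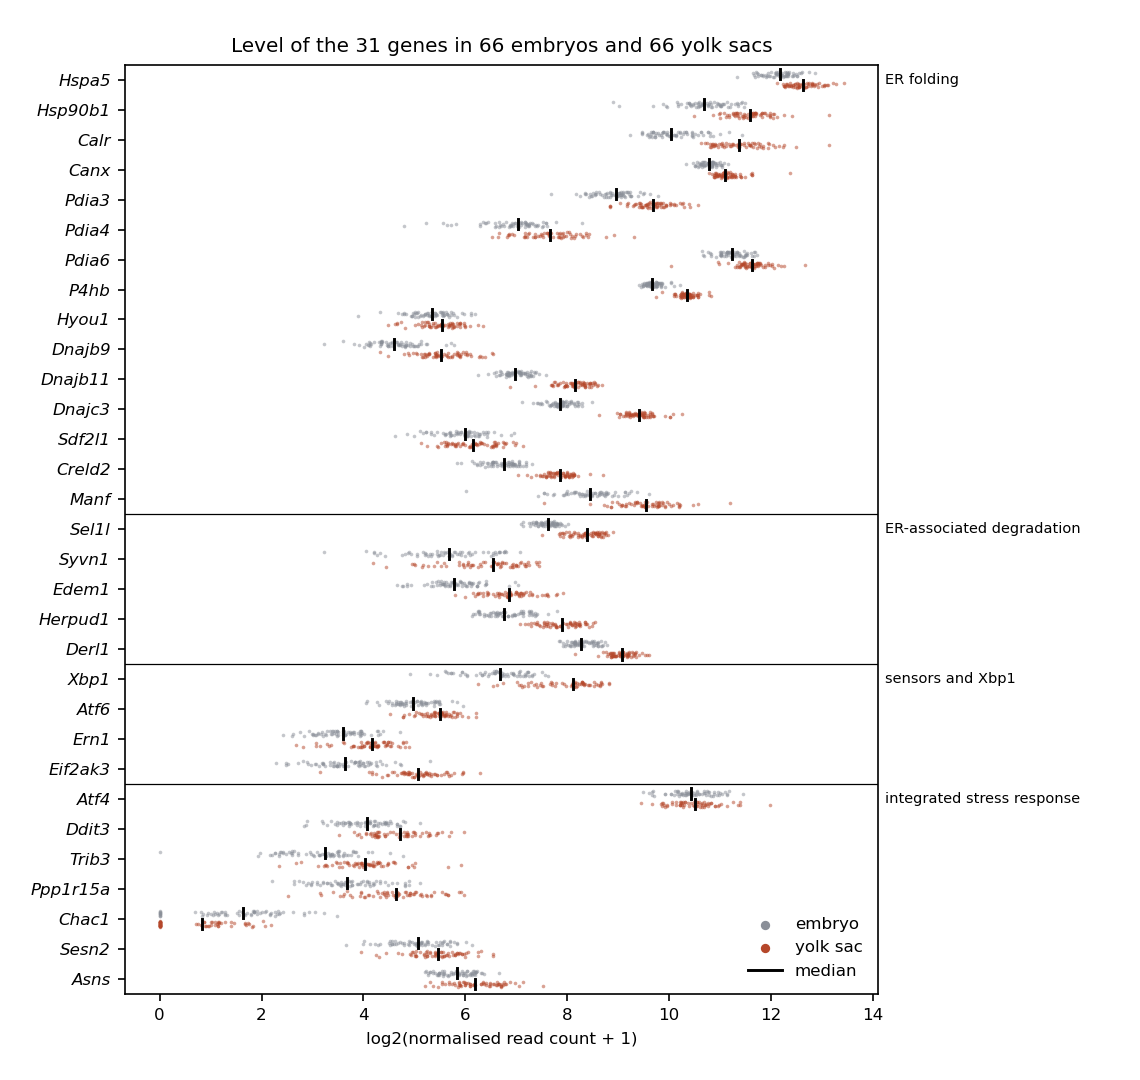
Level of each of the 31 genes in each of 66 embryos (gray) and 66 yolk sacs (red), as log2 of the normalised read count plus 1, with black lines at the medians, ordered by role. Hspa5, Hsp90b1, Calr, Canx, Pdia6 and Atf4 lie at the right, while Trib3 and Chac1 lie at the left. Other folding genes, such as Dnajb9, Hyou1 and Sdf2l1, lie between them. For nearly all genes the yolk sac points are shifted to the right of the embryo points.

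Among the chaperones, the lowest, median and highest Hspa5 counts in embryos were 4001, 5005 and 6896 in normal and 3211, 4193 and 5735 in diabetic pregnancies at the earlier stage. At the later stage they were 3452, 4517 and 5195 in normal and 2595, 4867 and 7460 in diabetic pregnancies. In yolk sacs they were 4884, 6687 and 10996 in normal and 4801, 5687 and 8481 in diabetic pregnancies at the earlier stage, and 5409, 6405 and 9867 in normal and 4445, 6309 and 9584 in diabetic pregnancies at the later stage. The 4 groups within a tissue overlapped throughout, and the yolk sac groups were shifted upward relative to the embryo groups while still overlapping them.

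Hsp90b1, the gene of the ER chaperone Grp94, had lowest, median and highest levels of 479, 1465 and 2888 in earlier normal embryos and of 1154, 1593 and 2832 in earlier diabetic embryos. In later embryos these were 980.3, 1906 and 2757 for normal and 1134, 1734 and 2599.8 for diabetic pregnancies. In yolk sacs the levels were 1849, 3221 and 5429 in earlier normal, 1437, 2653 and 3326 in earlier diabetic, 2033, 3186 and 4912 in later normal and 2054, 3188 and 9026 in later diabetic pregnancies. The value of 9026 belongs to conceptus D28M36C and lies far above the other yolk sacs.

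Calr (chr8:84841850-84846934) encodes calreticulin, the lectin chaperone that holds newly glycosylated proteins in the ER and binds calcium. Its lowest, median and highest levels in embryos were 601.7, 803 and 1256 in earlier normal, 793, 921 and 1188 in earlier diabetic, 805, 1162 and 1787 in later normal, and 1127, 1601 and 2759 in later diabetic pregnancies. In yolk sacs they were 1849, 2166 and 3207 in earlier normal, 1577, 1914 and 3236 in earlier diabetic, 2103, 3499 and 5723 in later normal, and 2526, 3224 and 9006 in later diabetic pregnancies. The highest Calr level of each tissue, 2759 and 9006, again came from conceptus D28M36C.

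Herpud1, which encodes a membrane protein of the degradation complex, had lowest, median and highest levels of 75.5, 135 and 221 in earlier normal, 68.9, 124 and 169.7 in earlier diabetic, 75.1, 101 and 164 in later normal and 72.2, 98.9 and 139.9 in later diabetic embryos. In yolk sacs these were 186, 242 and 334 in earlier normal, 134, 264 and 362 in earlier diabetic, 156, 203 and 300.3 in later normal and 149, 281 and 371 in later diabetic pregnancies. Xbp1, the factor gene spliced by Ire1, lay between 49.6 and 197 in earlier normal, 38.8 and 187 in earlier diabetic, 42.4 and 158 in later normal and 29.2 and 152 in later diabetic embryos, with medians of 96.0, 95.9, 108 and 105. In yolk sacs it lay between 92.0 and 406, 75.5 and 339, 142 and 450.4, and 162 and 451, with medians of 218, 181, 287 and 315 in the same order. For both genes every yolk sac median exceeded every embryo median.

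Eif2ak3, the gene of the sensor kinase Perk, had lowest, median and highest levels of 4.55, 12.6 and 19.6 in earlier normal, 8.48, 14.1 and 38.4 in earlier diabetic, 6.54, 11.1 and 25.3 in later normal and 3.91, 8.73 and 18 in later diabetic embryos. In yolk sacs these were 17.1, 29 and 52.0, 17.9, 35.0 and 77.1, 7.82, 33.3 and 59.9, and 16.4, 31.7 and 50.4 in the same order. The embryo groups overlapped one another and reached into the range of the yolk sacs.

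Among the genes of the integrated stress response, Atf4, whose product is its main transcription factor, had medians of 1638 in earlier normal, 1216 in earlier diabetic, 1452 in later normal and 1547 in later diabetic embryos, within ranges of 828 to 2242, 718 to 2196, 812 to 2322 and 972 to 2805. In yolk sacs its medians were 1569.9, 1232, 1452 and 1499.9 in the same order, within 699 to 2698, 919 to 2431, 925 to 2606 and 1061 to 4065. Embryo and yolk sac levels of Atf4 overlapped widely, and the highest value, 4065, was that of a yolk sac. Ddit3, the gene of the factor Chop, lay between 6.13 and 26.4, 6.38 and 25.2, 10.1 and 21.3, and 8.09 and 33.3 in the embryo groups of that order, with medians of 17.4, 12.2, 16.1 and 16. In yolk sacs it lay between 10.5 and 61.7, 14.5 and 50.3, 14 and 37.8, and 13.1 and 43.0, with medians of 31.4, 25.3, 22.6 and 24.1.

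Trib3 (chr2:152337422-152344032), a pseudokinase gene induced by Atf4 and Chop, had low counts. Its lowest, median and highest levels in embryos were 3.83, 9.11 and 21.9 in earlier normal, 0, 8.50 and 12.9 in earlier diabetic, 2.92, 5.15 and 11.9 in later normal and 2.84, 10.3 and 26.5 in later diabetic pregnancies. In yolk sacs they were 5.83, 15.8 and 49.8 in earlier normal, 10.2, 18.2 and 59.5 in earlier diabetic, 4.06, 14.5 and 21.3 in later normal and 7.58, 12.9 and 28.2 in later diabetic pregnancies. The mean unnormalised Trib3 count of an embryo group was between 6.25 and 11.5, so that single counts weigh on each value.

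Chac1, which encodes an enzyme that degrades glutathione, was the lowest of the 31 genes. Embryo medians were 2.46 in earlier normal, 1.96 in earlier diabetic, 1.32 in later normal and 2.33 in later diabetic pregnancies, with highest values of 7.25, 3.79, 6.13 and 10.2. In yolk sacs the medians were 1.008, 1.05, 0 and 0.409, with highest values of 3.06, 3.58, 2.50 and 2.37 in the same order. No Chac1 count was found in 1, 1, 5 and 3 embryos and in 5, 6, 11 and 8 yolk sacs of these groups. Asns, which encodes asparagine synthetase, was measured more firmly, with lowest, median and highest levels of 36, 43.9 and 74.5, 37.4, 51.5 and 71.8, 36.5, 55.2 and 78.9, and 51.4, 68.9 and 100.6 in the embryo groups of that order. Its levels in yolk sacs were 42.9, 63.7 and 109, 36.1, 58.7 and 93.7, 40.2, 84.7 and 184, and 62.9, 99.3 and 140.02. In both tissues the highest median of Asns was that of the later diabetic group.

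The first comparison asked how the embryo and the yolk sac of the same age differ in these genes. Nearly all of them were higher in the yolk sac. By edgeR's quasi-likelihood test, 28 of the 30 genes that passed the filter on low counts were called higher in the yolk sac at 5 or 6 somite pairs and 28 of 30 at the 7–9 somite stages, and 0 were called lower. Of all genes tested, 79.1% were called at the earlier stage, 39.3% higher and 39.7% lower. At the later stage 81.2% were called, 38.6% higher and 42.6% lower. The median log2 fold change of the 30 genes was 0.91 in earlier and 0.79 in later concepti, against 0.00 and -0.04 over all genes tested. The same 27 genes were called at both stages, and Hyou1 was called only at the earlier and Sdf2l1 only at the later stage. In bulk tissue a larger share of cells that express a gene and more RNA per cell cannot be told apart, and the markers of the visceral endoderm moved with the tissue, from a median sum of 665 in earlier normal embryos to 22428 in the yolk sacs of the same concepti. The part of tissue composition in these differences was not tested.

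**Figure D2:**
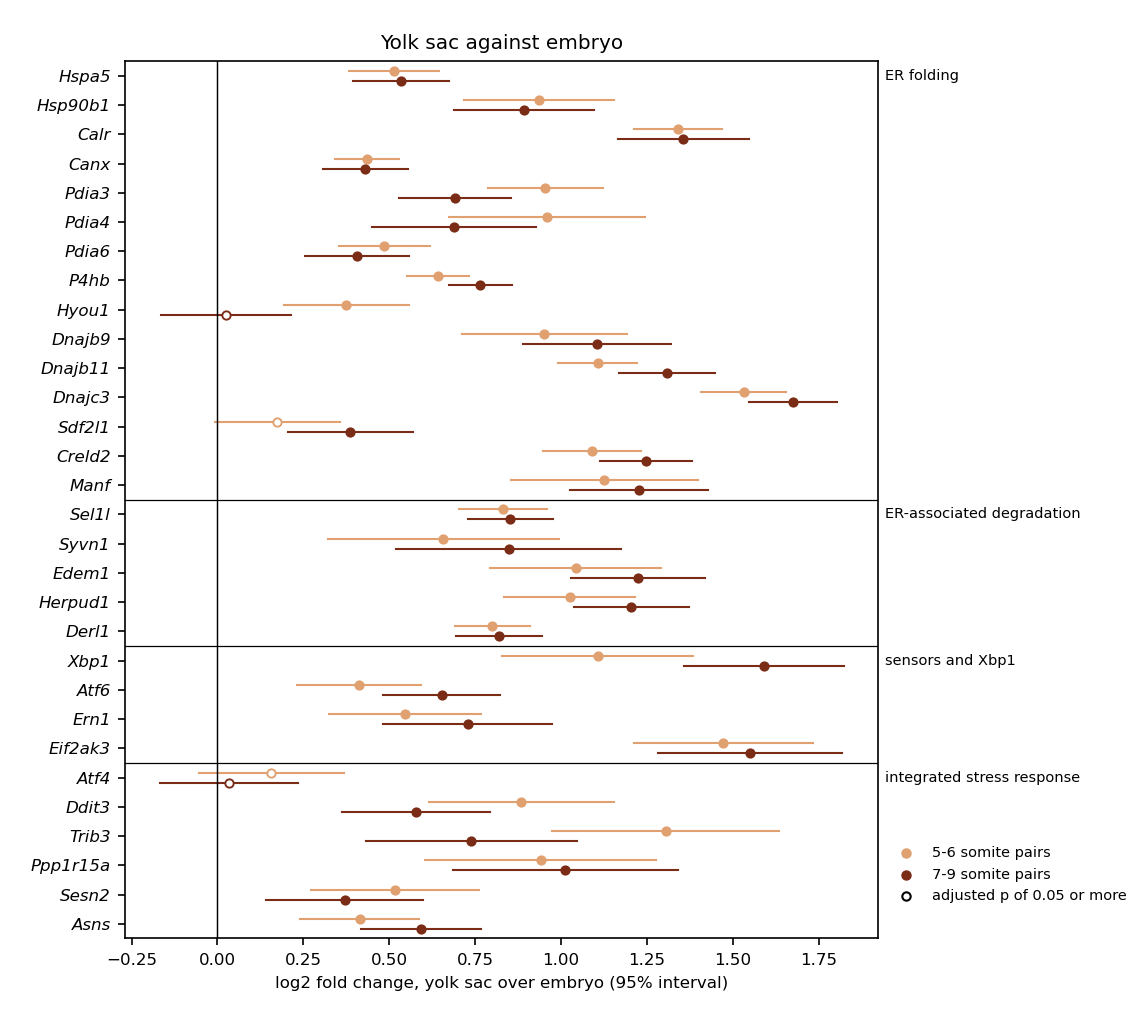
Log2 fold change of the yolk sac over the embryo with 95% intervals for the 30 genes tested, at 5-6 (light) and 7-9 somite pairs (dark). Filled points have an adjusted p under 0.05, and only Atf4 at both stages, Sdf2l1 at the earlier and Hyou1 at the later stage are open.

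Of the 15 ER folding genes, 14 were called at each stage. Dnajc3, whose product p58IPK restrains Perk and assists BiP, showed the largest difference, with a log2 fold change of 1.53 ± 0.06 (SE) in earlier and 1.68 ± 0.06 in later concepti (edgeR adjusted p = 1.2e-35 and 1.7e-36). Its highest level was 355 in the 34 earlier embryos and its lowest 505 in the earlier yolk sacs, so that the tissues did not overlap. Only 3 genes, Calr, Dnajc3 and Derl1, were separated in this way at the earlier stage and only Dnajc3 and Creld2 at the later stage, against 6.86% and 7.62% of all genes tested. No member lay wholly below the embryos, as 5.99% and 6.69% of all genes did. Calr was higher by 1.34 ± 0.06 and 1.36 ± 0.10, and Manf, which encodes a protein of the ER lumen that can be secreted, by 1.13 ± 0.14 and 1.23 ± 0.10. Dnajb11, a cochaperone gene of BiP, was higher by 1.11 ± 0.06 and 1.31 ± 0.07. Creld2 was higher by 1.09 ± 0.07 and 1.25 ± 0.07 and Dnajb9, the gene of a cochaperone that assists degradation, by 0.95 ± 0.12 and 1.11 ± 0.11. Hsp90b1 was higher by 0.94 ± 0.11 and 0.89 ± 0.10. Of the disulfide isomerase genes, Pdia3 was higher by 0.95 ± 0.08 and 0.69 ± 0.08, Pdia4 by 0.96 ± 0.14 and 0.69 ± 0.12, and P4hb by 0.64 ± 0.04 and 0.77 ± 0.05. Sdf2l1 differed by 0.17 ± 0.09 at the earlier stage (adjusted p = 0.076) and was higher by 0.39 ± 0.09 at the later stage. The smaller called differences were those of Canx, 0.44 ± 0.05 and 0.43 ± 0.06, Pdia6, 0.49 ± 0.07 and 0.41 ± 0.08, and Hspa5, 0.51 ± 0.07 and 0.53 ± 0.07. Hyou1 differed by 0.38 ± 0.09 at the earlier stage and by 0.03 ± 0.09 at the later stage, where its adjusted p was 0.81.

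All 5 genes of ER-associated degradation were called at both stages. Edem1, which helps to recognise misfolded glycoproteins, was higher in the yolk sac by 1.04 ± 0.12 and 1.22 ± 0.10, and Herpud1 by 1.03 ± 0.10 and 1.20 ± 0.08. Sel1l and Syvn1, the adaptor and the ubiquitin ligase of the same complex, were higher by 0.83 ± 0.06 and 0.66 ± 0.17 in earlier and by 0.85 ± 0.06 and 0.85 ± 0.16 in later concepti. Derl1, a channel component, was higher by 0.80 ± 0.05 and 0.82 ± 0.06.

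All 4 genes of the sensor group were also higher in the yolk sac. Eif2ak3 (chr6:70844515-70905245) was higher by 1.47 ± 0.13 and 1.55 ± 0.13, and Xbp1 by 1.11 ± 0.14 and 1.59 ± 0.12. Ern1 and Atf6 differed less, by 0.55 ± 0.11 and 0.41 ± 0.09 in earlier and by 0.73 ± 0.12 and 0.65 ± 0.09 in later concepti. The increase of the Xbp1 difference between stages, 0.54 ± 0.18, did not pass the test of the interaction (adjusted p = 0.078).

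In the integrated stress response group, Atf4 was the exception. It differed by 0.16 ± 0.11 in earlier and 0.03 ± 0.10 in later concepti (adjusted p = 0.17 and 0.77), with 95% intervals of -0.05 to 0.37 and -0.17 to 0.23. The 5 other genes of this group that passed the filter were higher in the yolk sac. Trib3 was higher by 1.30 ± 0.17 and 0.74 ± 0.15, Ppp1r15a, the gene of the phosphatase subunit that reverses eIF2 phosphorylation, by 0.94 ± 0.17 and 1.013 ± 0.16, and Ddit3 by 0.88 ± 0.14 and 0.58 ± 0.11. Sesn2, a stress-induced inhibitor of mTORC1 signaling, was higher by 0.52 ± 0.12 and 0.37 ± 0.11, and Asns by 0.41 ± 0.09 and 0.59 ± 0.09. Chac1 did not pass the filter. Without the filter it was lower in the yolk sac, by -1.08 ± 0.28 and -1.58 ± 0.38 (adjusted p = 7.2e-04 and 2.2e-04), at means of 2.43 in embryos and 0.836 in yolk sacs.

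The libraries of the same conceptus name were also compared pair by pair. The yolk sac exceeded the embryo of the same name in all 66 concepti for Calr, P4hb, Dnajb11, Dnajc3, Creld2 and Herpud1, and in at least 60 of 66 for 16 genes. The corresponding shares of all genes are not given here, so that these counts do not set the 31 genes apart. Eif2ak3 was higher in the yolk sac of 65, Xbp1 of 60, Hspa5 of 59 and Trib3 of 58 concepti. For Atf4 the count was 33 of 66, and its median difference was 0.00. For Chac1 the yolk sac was higher in 17 and lower in 46 concepti. Without the 2 pairs of unlike sex, the same 6 genes were higher in all 64 yolk sacs, and the counts were 33 for Atf4 and 17 for Chac1. The 10 genes with an ERSE or ERSE-II in the promoter differed between tissues by between 0.44 and 1.53 at the earlier stage, with a median of 0.98, and the 16 tested genes whose promoter held neither by between 0.16 and 1.47, with a median of 0.91. At the later stage the 10 genes differed by between 0.41 and 1.68, with a median of 1.05, and the 16 by between 0.03 and 1.59, with a median of 0.73. These values are given side by side without a test.

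Other genes of the pathway were taken from lists that do not share members with the 31. Of 120 tested, 82 were higher and 19 lower in the yolk sac at the earlier and 79 higher and 17 lower at the later stage. Genes of the translocon and of glycosylation, which move and modify proteins entering the ER, numbered 24 higher and 0 lower of 26 among earlier concepti, and 23 and 0 among later ones. Other genes of ER-associated degradation numbered 15 and 0 of 16, then 14 and 0. Among other targets of Atf4 and Chop 16 were higher and 13 lower of 34, then 15 and 12, and among the eIF2 kinases, phosphatases and factors 7 and 1 of 16, and 8 and 2. Creb3l3 and Creb3l1, which encode ER membrane-bound transcription factors related to Atf6, were higher by 5.89 ± 0.17 and 3.23 ± 0.13 at the earlier stage, and the sterol esterifying enzyme gene Soat2 by 5.12 ± 0.15. Ddit4, an inhibitor gene of mTORC1 signaling, was lower by -3.25 ± 0.24, the receptor gene Vldlr by -2.87 ± 0.15 and the proline synthesis gene Pycr1 by -2.11 ± 0.13. At the later stage these 6 genes moved the same way, between -4.08 and 6.13.

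Scaling to library totals instead of TMM, the default scaling of edgeR, shifted the median log2 fold change of all genes by -0.19 at 5 or 6 somite pairs and -0.13 later, and 27 of the 31 genes were then called higher and 0 lower at each stage. The share of higher calls among all calls at the earlier stage was 49.7% with TMM and 38.2% with library totals. With the conceptus as a block Sdf2l1 was called at the earlier stage as well, which gave 29 genes. DESeq2 called 28 higher and Chac1 lower at each stage. The shares of all genes called with the block or by DESeq2 are not given here. Within normal pregnancies alone 27 and 26 of the genes were called, against 70.6% and 75.2% of all genes in those fits, and within diabetic pregnancies alone 27 and 26, against 70.9% and 72.8%.

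The second comparison asked whether the genes change as somites are added, with the maternal condition in the fit. In embryos 10 of 30 genes were called, 3 higher and 7 lower at the 7–9 somite stages, while 29.8% of all genes tested were called, 14.6% higher and 15.2% lower. In yolk sacs 11 of 30 were called, 7 higher and 4 lower, against 40% of all genes, 21.7% higher and 18.3% lower. The median log2 fold change of the 30 genes was -0.03 in embryos and 0.01 in yolk sacs, against -0.01 and 0.01 over all genes. Calr, Sdf2l1 and Asns rose in both tissues, and 0 genes fell in both. The shares of all genes that rose or fell in both tissues are not given here.

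**Figure D3:**
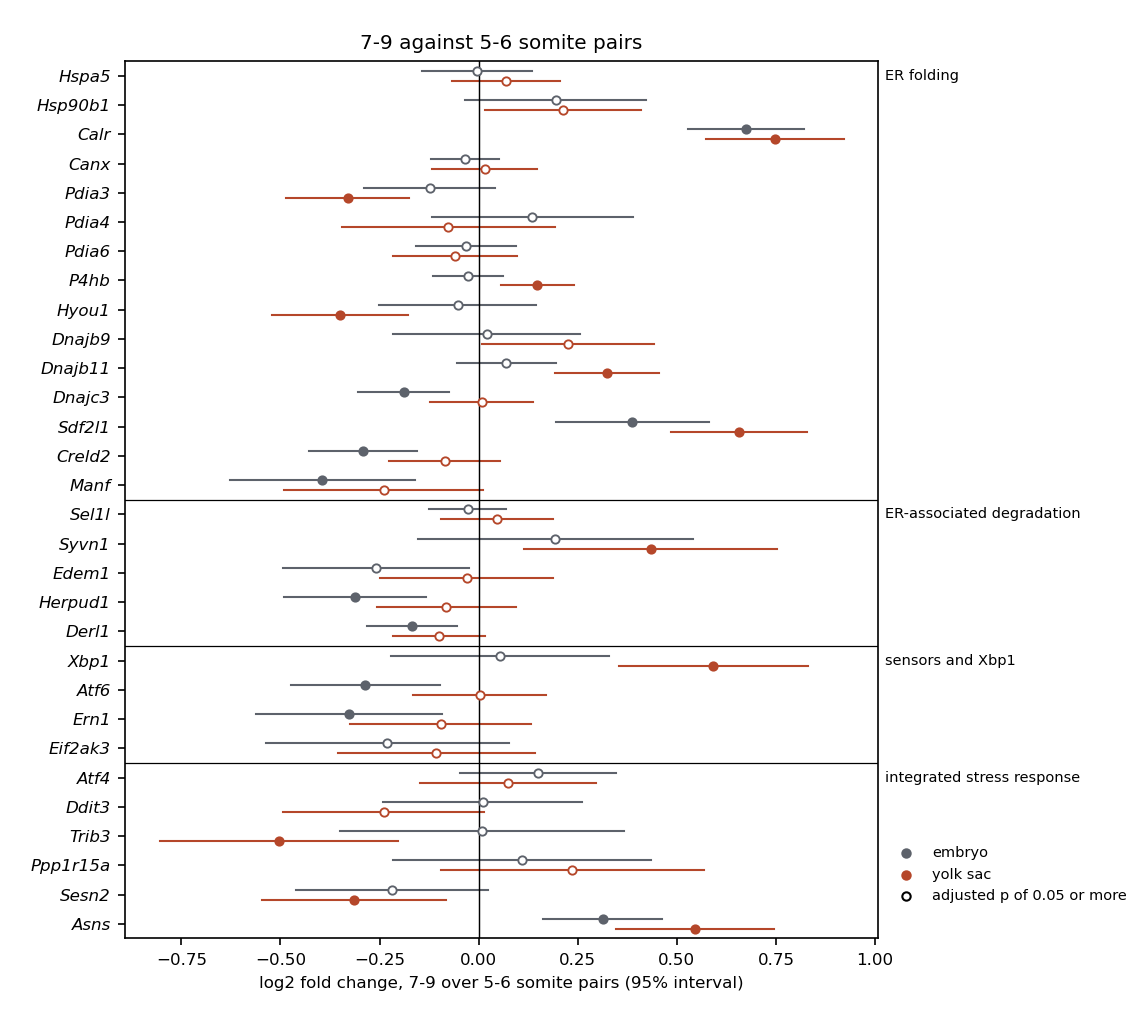
Log2 fold change of the 7-9 over the 5-6 somite stages with 95% intervals in embryos (gray) and yolk sacs (red) for the 30 genes tested. Calr stands farthest to the right in both tissues, at 0.67 and 0.75, and Trib3 in yolk sacs farthest to the left, at -0.50.

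Calr rose by 0.67 ± 0.07 in embryos and 0.75 ± 0.09 in yolk sacs (edgeR adjusted p = 1.5e-10 and 3.2e-10). The lowest later diabetic yolk sac, 2526, lay above the median of either earlier yolk sac group, although the groups overlapped. Sdf2l1, which encodes an ER protein that keeps unfolded proteins soluble, rose by 0.39 ± 0.10 in embryos and 0.66 ± 0.09 in yolk sacs, and Asns by 0.31 ± 0.08 and 0.55 ± 0.10. Markers of the heart rose with stage in embryos beside Calr. Their summed level had a median of 1986 in earlier and 2339 in later normal embryos, and of 1686 and 2671 in diabetic embryos, with all 6 markers at a mean of at least 10 in each embryo group. In yolk sacs, where Calr rose as well, the heart sum had medians between 63.5 and 91.7. The part of heart size in the embryo values was not tested.

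The genes that fell in embryos were spread over the folding, degradation and sensor groups. Manf fell by 0.39 ± 0.12, Creld2, the gene of a folding factor that is also secreted, by 0.29 ± 0.07, and Dnajc3 by 0.19 ± 0.06. Herpud1 fell by 0.31 ± 0.09 and Derl1 by 0.17 ± 0.06. Of the sensors, Ern1 fell by 0.33 ± 0.12 and Atf6 by 0.29 ± 0.09. None of these 7 was called in yolk sacs, where Manf changed by -0.24 ± 0.13 and the other 6 by between -0.10 and 0.01.

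In yolk sacs Xbp1 rose by 0.59 ± 0.12 and Syvn1 by 0.43 ± 0.16. Dnajb11 rose by 0.32 ± 0.07, and P4hb, the gene of protein disulfide isomerase, by 0.15 ± 0.05. Trib3 fell by 0.50 ± 0.15, Hyou1, the gene of a large ER chaperone, by 0.35 ± 0.09, Pdia3, a disulfide isomerase gene of the calreticulin cycle, by 0.33 ± 0.08, and Sesn2 by 0.31 ± 0.12. The difference between the tissues in these changes was tested as an interaction over all 8 groups, in which 0 of 30 genes were called against 3.23% of all genes tested, 1.74% upward and 1.49% downward, and 9 had an unadjusted p under 0.05. DESeq2 also called 0. Of 121 other pathway genes 5 had a positive difference, the yolk sac change minus the embryo change, and 0 a negative one. Among the 5 were Creb3l1, at 0.82 ± 0.21, Psph, at 0.47 ± 0.13, and the translocon gene Sec62, at 0.41 ± 0.11. Psph itself fell in embryos, as given below. Of the other pathway genes, 19 rose and 21 fell of 117 in embryos and 32 rose and 17 fell of 120 in yolk sacs. Sec61g, a translocon subunit gene, rose by 0.53 ± 0.20 in embryos and 1.005 ± 0.18 in yolk sacs, and Fkbp2, a gene of an ER prolyl isomerase, by 0.46 ± 0.16 and 0.93 ± 0.16. The tRNA synthetase gene Wars rose by 0.45 ± 0.07 in embryos, and Creb3l1 by 0.89 ± 0.11 in yolk sacs. Bbc3, the gene of a Bcl-2 family protein induced in apoptosis, fell by 0.49 ± 0.10 and 0.87 ± 0.14. Further falls were those of Cebpb, 0.48 ± 0.14 lower, and Psph, a serine synthesis gene, 0.40 ± 0.08 lower, in embryos, and of Ddit4, 0.84 ± 0.31 lower, and the amino acid transporter gene Slc7a5, 0.42 ± 0.17 lower, in yolk sacs. In normal pregnancies alone 4 genes were called in embryos, Calr higher and Derl1, Creld2 and Hspa5 lower, and 3 in yolk sacs, Calr and Sdf2l1 higher and Hyou1 lower, against 15.1% and 7.84% of all genes in those fits. In diabetic pregnancies alone 10 and 11 were called, against 29.2% and 33.7%.

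The third comparison asked whether the genes differ between diabetic and normal pregnancies. Across both tissues and stages, 1 gene was called. Calr was higher in diabetic embryos at the 7–9 somite stages, by 0.46 ± 0.11 on the log2 scale, a 1.38-fold difference (edgeR adjusted p = 0.0071). At that stage 1 of 29 genes tested was called, against 9.09% of all genes, 5.2% higher and 3.89% lower. In embryos at 5 or 6 somite pairs 0 of 30 were called against 1.46% of all genes, 0.591% higher and 0.872% lower, and in yolk sacs 0 of 30 against 0% at the earlier and 0 of 30 against 0.0194% at the later stage. Before adjustment, 7, 7, 3 and 4 genes had a p under 0.05 in the earlier embryos, later embryos, earlier yolk sacs and later yolk sacs. DESeq2 called 3, 2, 0 and 0, and its shares of all genes are not given here. The median log2 fold change of the genes tested was -0.01, -0.04, -0.06 and 0.04 in the same order. In the 30 earlier embryo, earlier yolk sac and later yolk sac tests each, all 95% intervals lay within 1 on the log2 scale, as did 28 of 29 in later embryos.

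**Figure D4:**
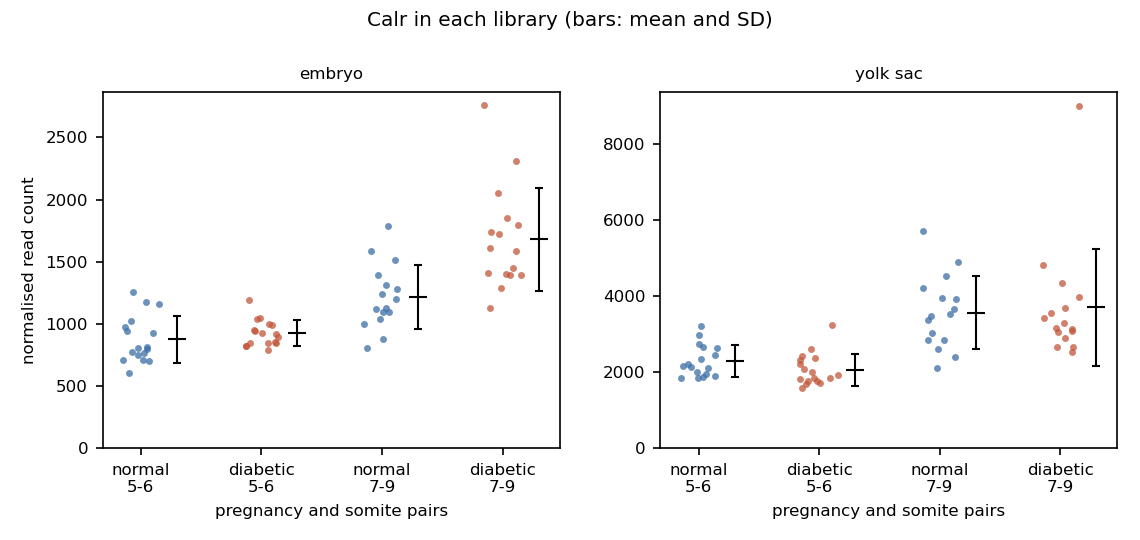
Normalised read count of Calr in each library of embryos (left) and yolk sacs (right), by maternal condition and stage, with mean and SD. In embryos the later diabetic group lies highest, between 1127 and 2759, against 805 to 1787 in the later normal group, while the yolk sac groups of a stage overlap throughout.

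Calr averaged 1681 ± 415 (SD, n = 16) normalised read counts in later diabetic and 1217 ± 259 in later normal embryos, and the ranges overlapped. The litter means differed by 0.48 on the log2 scale, and each of the 6 diabetic litters exceeded the median of the 7 normal litters (p = 0.0041 by an exact permutation test, two-sided over 1716 splits, and 0.016 after adjustment over 4 such tests). The tests took the gene with the lowest p of each comparison, so that they are no independent evidence for it. Within library titles whose first number is 28, the means were 1727 ± 474 (n = 8) in diabetic and 1169 ± 224 (n = 13) in normal pregnancies. Within those whose first number is 24 they were 1670 ± 391 (n = 7) and 1424 ± 347 (n = 3). The 7 diabetic embryos of title number 24 were littermates and shared a dam, so that their SD does not measure the spread between dams. The remaining library of the later diabetic embryos had another title number. With the title number as a covariate 5 genes were called, Calr higher and Syvn1, Edem1, Herpud1 and Ppp1r15a lower. The share of all genes called in that fit is not given here, so that the 5 cannot be set against it. Without conceptus D28M36C the log2 fold change was 0.41 (adjusted p = 0.014). With counts summed per litter it was no longer called (adjusted p = 0.086). The sum of heart markers lay between 2042 and 4160 in later diabetic and between 1669 and 2766 in later normal embryos, and its part in the Calr difference was not tested. In earlier embryos Calr differed by 0.08 ± 0.09, and the difference between the stages, 0.39 ± 0.14, did not pass the test (adjusted p = 0.060). In yolk sacs its means were 2069 ± 421 and 2298 ± 418 in earlier and 3707 ± 1544 and 3569 ± 960 in later diabetic and normal pregnancies.

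In earlier embryos Hspa5 came closest to a call, at 4190 ± 828 (SD, n = 17) normalised read counts in diabetic and 5174 ± 816 (n = 17) in normal pregnancies. Its log2 fold change of -0.30 ± 0.09 did not pass the test (edgeR adjusted p = 0.065). The litter means differed by -0.28 and 0 of 9 diabetic litters exceeded the median of the 10 normal litters (p = 0.017 by the same exact permutation test over 92378 splits, and 0.034 after adjustment). DESeq2 called Hspa5, Dnajb11 and Sel1l lower. In later embryos the Hspa5 difference was 0.09 ± 0.10. In yolk sacs the lowest p values belonged to Dnajc3 at the earlier stage, -0.23 ± 0.09 (adjusted p = 0.52), and Ppp1r15a at the later stage, 0.53 ± 0.20 (adjusted p = 0.36). Their litter means differed by -0.19 and 0.64 (exact permutation p = 0.069 and 0.058, adjusted p = 0.069 for both).

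Trib3 and Chac1 did not pass the filter in later embryos. Without it Trib3 was 0.83 ± 0.24 higher in diabetic pregnancies (adjusted p = 0.037), at means of 11.2 and 6.16 normalised read counts, and Chac1 0.81 ± 0.47 higher (adjusted p = 0.36). The duplicate library of later diabetic embryo D24M15G differed from its original by 0.82 on the log2 scale in Trib3, the most of 28 genes compared. For the other embryo with a duplicate, N28M06C, the largest difference was 0.46, for Ppp1r15a. Of the other pathway genes, 0 rose and 1 fell of 114 in earlier embryos and 7 rose and 4 fell of 113 in later embryos, while 0 were called in yolk sacs. Among all genes tested, 1.46% were called in earlier and 9.09% in later embryos. The gene that fell in earlier embryos was Cth, which encodes the cysteine-forming enzyme cystathionine gamma-lyase, by 0.60 ± 0.14 on the log2 scale. In later embryos Cth fell by 0.64 ± 0.19, Selenos, a gene of the degradation machinery, by 0.39 ± 0.09 and Edem3 by 0.37 ± 0.11. Sil1, the gene of a nucleotide exchange factor of BiP, rose by 0.55 ± 0.17, Ssr4, a translocon gene, by 0.37 ± 0.11 and the synthetase gene Sars by 0.37 ± 0.10.

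The last comparisons asked whether the effect of the maternal condition differs between stages or tissues. In embryos 3 of 30 genes were called for the interaction of stage and maternal condition, against 8.7% of all genes tested, 4.35% in each direction. These contrasts use the same libraries as the comparisons above and are no separate evidence. Trib3 had a difference of 1.09 ± 0.33 between the later and the earlier effect of diabetes (edgeR adjusted p = 0.031), with means of 7.53 in diabetic and 9.21 in normal embryos in earlier and 11.2 and 6.16 in later concepti. For Eif2ak3 the difference was -0.91 ± 0.29 (adjusted p = 0.038), with means of 15.99 and 11.6 in earlier and 9.47 and 13.2 in later concepti. For Hspa5 it was 0.40 ± 0.13 (adjusted p = 0.042), with means of 4190 and 5174 at 5 or 6 somite pairs, then 4766 and 4474. Of 117 other pathway genes, 5 had a positive and 7 a negative difference. Sil1 had one of 0.83 ± 0.25, the translocon gene Sec61a1 of 0.60 ± 0.17 and Erp29, a gene of an ER folding factor, of 0.37 ± 0.12. Aldh18a1, a proline synthesis gene, had -1.16 ± 0.36, Vcp, the gene of the ATPase that extracts proteins from the ER, had -0.89 ± 0.26 and Eif2ak2, an eIF2 kinase gene, had -0.81 ± 0.23. Littermates count as independent in this fit. With the litter as a random block in limma (correlation 0.191), Trib3 (adjusted p = 0.049) and Eif2ak3 (adjusted p = 0.021) were called, Hspa5 was not (adjusted p = 0.066), Atf4 was called as well, and 11.4% of all genes were called. With counts summed per litter and stage, 0 of the 3 were called (edgeR adjusted p = 0.19 for Trib3 and Eif2ak3 and 0.37 for Hspa5), and 0.00789% of all genes. All 3 calls were lost without the filter on low counts, and Trib3 alone was called without conceptus D28M36C or without the 2 concepti of unlike sex.

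**Figure D5:**
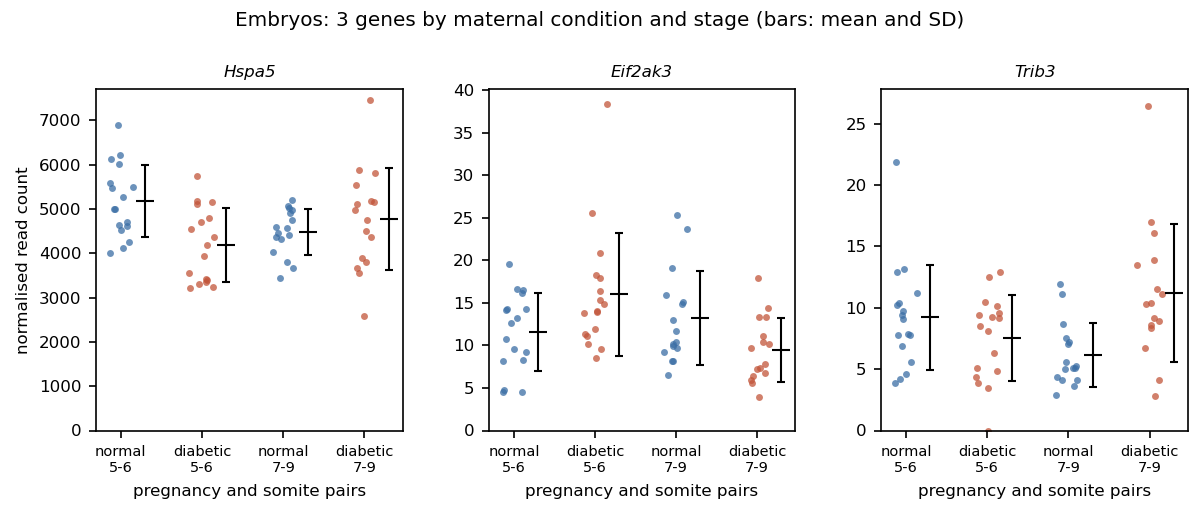
Normalised read counts of Hspa5, Eif2ak3 and Trib3 in each embryo, by maternal condition (blue normal, red diabetic) and somite stage, with mean and SD. For Hspa5 and Trib3 the diabetic mean is below the normal mean at 5-6 and above it at 7-9 somite pairs, and for Eif2ak3 the order is the reverse, while all groups overlap.

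In yolk sacs 0 of 30 genes were called for this interaction, against 0% of all genes, and 1 had an unadjusted p under 0.05. The interaction of tissue and maternal condition gave 0 of 30 at the earlier stage against 0% of all genes and 0 of 30 at the later stage against 0.389%, 0.19% upward and 0.199% downward, with 1 and 6 genes at an unadjusted p under 0.05. The lowest p at the later stage was that of Ppp1r15a, with a difference of 1.05 ± 0.31 between the effect in yolk sacs and that in embryos (adjusted p = 0.070). Its means were 33.8 ± 13.5 in diabetic and 22.6 ± 9.63 in normal yolk sacs and 11.2 ± 4.69 and 16.8 ± 7.94 in embryos (SD, n = 16 each). Immediate early genes, which are induced rapidly and transiently by many stimuli, moved with it. The summed level of 13 such genes had medians of 390 in diabetic and 240 in normal yolk sacs and 294 and 350.5 in embryos, and their part in the Ppp1r15a values was not tested. DESeq2 called Ppp1r15a, and without conceptus D28M36C Pdia3 was called instead.

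Relations between genes among the libraries of a group were computed for 4 pairs. Hspa5 with Hsp90b1, Trib3 with Chac1, Atf4 with Asns and Hspa5 with Trib3 were examined in each of the 8 groups, which gave 32 relations. Of these 0 passed a permutation test after adjustment. The highest correlation was that of Trib3 with Chac1 in earlier normal embryos (Pearson's r = 0.62, permutation p = 0.0077, adjusted p = 0.25, Spearman's rho = 0.64, permutation p = 0.0066, adjusted p = 0.21, n = 17), which was 0.53 without the 2 libraries farthest from the Trib3 median. For Hspa5 with Hsp90b1, both chaperone genes with an ERSE, r lay between -0.46 and 0.24 over the groups, and without the 2 farthest libraries between -0.53 and 0.33. For Atf4 with Asns r lay between -0.59 and 0.10, and for Hspa5 with Trib3 between -0.28 and 0.05. For Trib3 with Chac1 it lay between -0.28 and 0.62, and the counts of Chac1 were low in every group. Littermates are among the points, so that these are not fully independent.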

How the data were processed

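Single embryos and yolk sacs had been sequenced with QuantSeq 3′ end libraries, and the authors deposited 1 table of unique molecular identifier counts per gene. The submitters' notes name STAR, HTSeq and the build mm10 (GRCm38), with versions not given in the sources used here. The 31 genes and the pathway and marker lists were chosen with earlier results of these data known. Named were all members called, or the 6 raised and 6 lowered most where over 12 were called, the member of lowest p where 0 were called, and up to 3 called pathway genes of largest change in each direction. Further members are named to account for all 31. Of 136 libraries, 4 duplicates of other libraries were left out. The raw counts were tested with edgeR 4.0.16 (R 4.3.3): filterByExpr with a minimum count of 10, TMM scaling, the quasi-likelihood test, and a threshold of 0.05 on p-values adjusted by Benjamini-Hochberg across the genes that passed the filter. Fits between tissues or stages included maternal condition. Levels were divided by size factors of DESeq2 1.42.0. Litter means were compared by exact permutation. Litter blocks used limma 3.58.1. Alternatives included DESeq2, other scalings and filters, blocks, title number, and leaving out each litter. Leaving out conceptus D28M36C or the 2 concepti of unlike sex labels, with the pair counts without them, and the litter in the interaction of stage and diabetes were chosen after seeing the data. Embryo and yolk sac of a conceptus are paired by the labels, except that the sexes differ for 2 pairs. Deviations from the group means correlated with a median r of 0.105 (5 or 6 somite pairs) and 0.0439 (7–9). Scripts were tested on simulated data. Counting error alone is large for genes with fewer than 10 counts, such as Chac1.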

Additional observations from a re-analysis of the deposited data

Results flagged for a closer look

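The effect of maternal diabetes in embryos differed between the stages for 3 of 30 genes, against 8.7% of all genes tested. These shares are close, so that the count does not set the 30 genes apart. The test was that of the interaction (edgeR's quasi-likelihood test, adjusted over all genes). The difference between the later and the earlier effect was 1.09 ± 0.33 on the log2 scale for Trib3 (adjusted p = 0.031), -0.91 ± 0.29 for Eif2ak3 (adjusted p = 0.038) and 0.40 ± 0.13 for Hspa5 (adjusted p = 0.042). With counts summed per litter and stage, 0 of these 3 were called. The mean unnormalised counts of Trib3 and Eif2ak3 in the embryo groups lay between 6.25 and 18.2.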

How the results depend on the processing

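For diabetic against normal embryos at the earlier stage, where 0 genes were called, DESeq2 called 3, library totals 1 (Hspa5), the title number as covariate 1 (Sel1l) and a fit of all 8 groups 2 (Dnajb11 and Hspa5), and leaving out 1 litter gave 0 to 3. The litters D24M15 and N23M31 gave 2 each and N24M21 gave 3. Over all genes, that comparison gave 161 calls with TMM, 40.4% of them higher, and 257 with library totals, 27.6% of them higher. At the later stage, where Calr was called, DESeq2, no filter and the fit of all 8 groups called 2 (Calr and Trib3), the title number as covariate 5 and counts summed per litter 0, and leaving out 1 litter gave 1 to 2. Pdia4 joined without D28M31 or N24M21, Asns without N28M06 and Pdia3 without N28M30. The log2 fold change of Calr lay between 0.41 and 0.53 and its adjusted p between 0.0012 and 0.086 over 25 alternatives. In yolk sacs leaving out 1 litter gave 0 to 0 calls at both stages. Between stages, normal pregnancies alone gave 4 calls in embryos and 3 in yolk sacs. The interaction of stage and diabetes in embryos gave 0 without a filter, 0 with counts summed per litter and stage, 1 without conceptus D28M36C and 1 without the 2 concepti of unlike sex labels. That of tissue and diabetes at the later stage gave 1 with DESeq2 and 1 without D28M36C, and that of tissue and stage 1 without D28M36C. With the conceptus as a replicate block the yolk sac and the embryo differed in 29 and 28 genes, and the interaction of tissue and diabetes was called for 0 and 0. For the other settings the share of all genes called is not given here. A change in a count therefore cannot be read as particular to the 31 genes. The causes of these changes were not tested.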
